A study of Arabidopsis thaliana with 4 samples.

Results

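The histone genes of Arabidopsis thaliana encode the proteins of the nucleosome core, H2A, H2B, H3 and H4, and the linker histone H1. They were taken by locus name, under a rule that uses no measured value, as 48 genes: 13 for H2A, 11 for H2B, 13 for H3, 8 for H4 and 3 for H1. Of these, 45 were among the 23174 genes with values. The H2A-type gene HTA4, the seed H2B gene HTB8 and the male-gamete H3 gene HTR10 were not analysed here. The RNA-seq libraries, stranded and selected for polyA, were 2 of atino80-5 and 2 of wild type, all from whole seedlings aged 14 days on agar plates at 22 °C with 16 h of light and 8 h of dark. The mutant carries an allele of INO80, which encodes the motor subunit of a complex that slides nucleosomes and exchanges their histones. The labels give neither the lesion nor the parent strain, and name no other allele or treatment. They do not say that replicates were separate cultures, so the p-values cover only the spread among these 4, and that spread may be technical.

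A nucleosome is DNA wound around pairs of the core histones, and plants make most core histones from several genes each. Canonical H2A and H3.1 are made largely in S phase, when new DNA has to be packaged, whereas variants such as H2A.Z and H3.3 are also made and inserted outside it. H2A.Z is deposited by the SWR1 complex and is found around transcription starts, and the INO80 complex acts on nucleosomes that contain it. Plant histone mRNAs carry a polyA tail, so selection for polyA retains them. In whole seedlings, more cells of a dividing type and more RNA per cell cannot be told apart.

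Histone genes share short elements in front of the gene. The 250 bases before each RefSeq gene start (TAIR10.1) were searched on both strands for the octamer CGCGGATC, the hexamer ACGTCA and the E2F-type sites TTTCCCGC and TTTGGCGC, none of which lies inside another. The octamer stood in front of 10 of the 48 histone genes (20.8%), against 37 of 27431 protein-coding genes (0.135%). It occurred in 3 H2A, 4 H3, 2 H4 and 1 H1 gene, in 0 of the 11 H2B genes and in 0 of the 3 H2A.Z genes. The hexamer stood in front of 8 of 11 H2B genes (72.7%) and 12 of the 48 histone genes (25%), against 7.69% of all protein-coding genes. TTTGGCGC was found in front of 2 of the 48 (4.17%), both H4 genes, against 0.361% of all, and TTTCCCGC in front of 0 of the 48, against 0.62% of all. The fronts of those 2 H4 genes, AT3G46320 and AT3G45930, are nearly identical, so their TTTGGCGC sites are not independent.

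The octamer sites are shown because, of the 4 motifs searched, the octamer had the widest ratio between histone genes and all genes. There were 12 sites in 10 genes, 8 of them on the strand of the gene. The 10 sites with 10 bases of window on either side are printed here, turned so that the octamer, in capitals, reads in one direction. All 10 printed sites had an A before the octamer and 6 had TCA. The octamer's far end lay between 126 bases (HTR1 and AT1G07660) and 19 bases (the second site of HTR2) before the gene start. A second site in HTA10 and the site in HTR5 lie too close to the gene start for full flanks and are not printed. Before the octamer, that HTA10 site has an A but the HTR5 site has a T.
HTA6: tacatagtcaCGCGGATCgtgctttatt
HTA10: ttcactctgaCGCGGATCctgaatctcg
HTA13: taaacaatcaCGCGGATCgatgttactg
HTR1: ttagacgtgaCGCGGATCactaaaatta
HTR2, first site: cgtaccttcaCGCGGATCagtgttagaa
HTR2, second site: tgtgatttcaCGCGGATCgtgatagaaa
HTR9: taacacaggaCGCGGATCgtaaagatac
AT5G59690: actgccatcaCGCGGATCactaatatga
AT1G07660: acagatttcaCGCGGATCgcaatcttgg
H1.1: acaatgactaCGCGGATCgctactcttt

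The fronts of the 4 members that passed the authors' own test are shown whole, with any searched motif in capitals. HTA9 is the most expressed H2A.Z gene, HTB3 an H2B gene, and AT5G59690 and AT3G45930 are H4 genes. The files' build is TAIR10 and they hold no coordinates. The sequences are RefSeq's (TAIR10.1), all on the plus strand: HTA9 at chr1:19644986-19645235, HTB3 at chr2:12326558-12326807, AT5G59690 at chr5:24051224-24051473 and AT3G45930 at chr3:16883066-16883315. HTA9 has none of the 4 motifs, HTB3 has the hexamer, AT5G59690 the octamer and AT3G45930 a TTTGGCGC site.
HTA9: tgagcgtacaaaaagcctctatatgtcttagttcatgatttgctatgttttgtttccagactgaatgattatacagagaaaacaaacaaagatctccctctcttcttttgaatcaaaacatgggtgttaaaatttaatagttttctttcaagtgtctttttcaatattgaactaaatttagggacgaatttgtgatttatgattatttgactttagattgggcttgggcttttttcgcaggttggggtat
HTB3: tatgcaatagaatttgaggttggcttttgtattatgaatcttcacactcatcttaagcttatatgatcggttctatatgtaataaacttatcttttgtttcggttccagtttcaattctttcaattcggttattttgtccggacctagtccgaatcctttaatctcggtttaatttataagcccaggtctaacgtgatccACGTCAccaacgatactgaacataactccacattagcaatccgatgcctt
AT5G59690: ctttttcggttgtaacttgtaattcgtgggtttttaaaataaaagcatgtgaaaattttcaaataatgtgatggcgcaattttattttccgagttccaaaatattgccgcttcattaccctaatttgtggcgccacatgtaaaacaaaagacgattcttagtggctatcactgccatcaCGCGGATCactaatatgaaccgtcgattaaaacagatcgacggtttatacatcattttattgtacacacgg
AT3G45930: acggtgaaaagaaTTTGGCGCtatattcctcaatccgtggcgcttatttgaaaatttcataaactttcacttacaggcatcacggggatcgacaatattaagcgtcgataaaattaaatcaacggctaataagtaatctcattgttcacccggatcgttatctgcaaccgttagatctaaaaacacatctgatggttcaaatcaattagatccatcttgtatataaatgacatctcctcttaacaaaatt

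Gene structure separated the classes too. All 13 H2A and all 3 H1 genes have at least 1 intron in the RefSeq annotation, all 11 H2B genes have none, and 7 of 13 H3 and 3 of 8 H4 genes have one or more. The H3.3 genes HTR4, HTR5 and HTR8 have 3, 4 and 2 introns, whereas the 5 H3.1 genes have none. Of the 45 genes with values, 9 overlap another annotated gene, 8 of them on the opposite strand and HTR3 on the same strand. The transcripts are similar, but 50-base stretches found elsewhere in the reference genome were rare outside H4 (at most 6.27%, in HTR14). They made up 27.9% of AT3G46320 and 25.7% of AT3G45930, which share them with each other. They also made up 28.5% of AT1G07660, 19.4% of AT1G07820, 8.48% of AT5G59690 and 6.94% of AT5G59970. Reads of those H4 genes may be split between copies, and their values are uncertain to that extent.

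Reads counted in the genes with values came to 13068214 and 14746250 in atino80-5, against 13846046 and 18406709 in wild type. INO80 (AT3G57300) had 2.72 and 3.13 FPKM (fragments per kilobase of gene, scaled by the authors for library depth) in atino80-5, against 4.28 and 4.54 FPKM in wild type. Both mutant libraries were lower, at 0.664 times the wild-type mean, but the difference missed the threshold (log2 difference -0.46 ± 0.15 SE, limma adjusted p = 0.117). Leaf genes of a seedling were high in every library. CAB1, a chlorophyll-binding protein, was at 16440 and 14520 FPKM in atino80-5 and 10090 and 11620 FPKM in wild type. The Rubisco small-subunit genes were lowest in atino80-5 replicate 1: RBCS1A was at 20630 and 36160 FPKM in atino80-5 and 34640 and 24950 FPKM in wild type, and RBCS3B at 7576 and 15320 FPKM in atino80-5 and 14090 and 10070 FPKM in wild type. None of these 3 passed the limma test. Seed storage and oil-body genes had a summed level of 58.5 and 68.2 FPKM in atino80-5, against 0.901 and 0.799 FPKM in wild type. Of the 10, 6 could be tested and limma called all 6 higher, against 528 of 17642 genes tested. These 6 reached the mean of 1 FPKM needed for testing only through their atino80-5 values. Their shared direction was thus largely set by that filter. The cruciferin gene CRA1 among them had 21.2 and 28.7 FPKM in atino80-5, against 0.334 and 0.446 FPKM in wild type (limma adjusted p = 0.00172). Of the 6 pollen genes listed, 2 had values, and these summed to 0.0709 and 0.0675 FPKM in atino80-5 and 0.0556 and 0.0959 FPKM in wild type. The part of seed RNA in the histone values was not tested.

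Across the histone genes the atino80-5 libraries did not behave alike. The 45 genes summed to 4169 and 2805 FPKM in atino80-5, against 2664 and 2570 FPKM in wild type, so replicate 1 stood at 1.59 times and replicate 2 at 1.07 times the wild-type mean. As a share of the reads counted in all genes with values, they took 0.36% and 0.269% in atino80-5, against 0.28% and 0.279% in wild type. Such a share uses the total of each library in place of the authors' scaling. On that measure replicate 1 was the highest and replicate 2 the lowest of the 4. With scaling to total reads, the median log2 difference of all genes tested (atino80-5 minus wild type) was itself -0.16. The results that follow are therefore given by library.

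Limma was run on log2(FPKM + 1) of the 17642 genes that averaged 1 FPKM or more, and a gene was called at a Benjamini-Hochberg adjusted p under 0.05 over all of them. HTR6 and HTR14 were below that level, which left 43 histone genes. Limma called 0 of the 43, against 5.41% of all genes tested and 10.6% of short genes, those of up to 1200 bases. At an unadjusted p under 0.05 there were 8 of 43 (18.6%), 5 with higher and 3 with lower values in atino80-5, against 27.0% of all genes and 36.5% of short genes. The authors' deposited table, from DESeq2, called 4 of the 43. HTA9, AT5G59690 and AT3G45930 were higher there (3 of 43), against 5.85% of all 20478 genes with an adjusted p. Among genes also tested here, it called 1150 of 17582 higher, and 13.4% of the short ones. HTB3 was lower there (1 of 43), against 3.65% of all genes with an adjusted p. Among genes also tested here, 665 of 17582 were called lower, and 3.65% of the short ones. With limma voom on the recovered reads 1 was called, HTB3, as lower, against 1342 of 17642 genes called either way.

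Direction was more uniform than the calls. The difference (atino80-5 minus wild type) was positive for 38 of 43 histone genes (88.4%), against 52.9% of all genes and 62.9% of short genes. Its median was 0.32 on the log2 scale, against 0.03 for all genes and 0.18 for short genes. By library, the median against the wild-type mean was 0.60 in replicate 1 and 0.06 in replicate 2, and for short genes it was 0.26 and 0.11. Replicate 1 held the highest of the 4 values for 34 of 43 histone genes (79.1%), against 38.7% of all genes and 46.8% of short genes. The positive direction leans on the scaling. With quantile normalisation 25 of 43 were positive. The histone median was then 0.04, against -0.01 for all genes and 0.12 for short genes. With scaling to total reads, which put the median of all genes at -0.16, 29 of 43 were positive. There the histone median was 0.10, against -0.01 for short genes.

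Leaving out libraries changed the calls. Without atino80-5 replicate 1 the histone median was 0.06, 27 of 43 were positive, and limma called 1 gene, HTB3, as lower, against 8.85% of all genes called either way. Without atino80-5 replicate 2 it called 24 histone genes higher, among them 9 of H2A and 6 of H4, against 22.1% of all genes, and 3 lower (HTB3, HTB7 and HTA12), against 17%. The lone atino80-5 library is in both cases assumed to vary like the others.

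**Figure D1:**
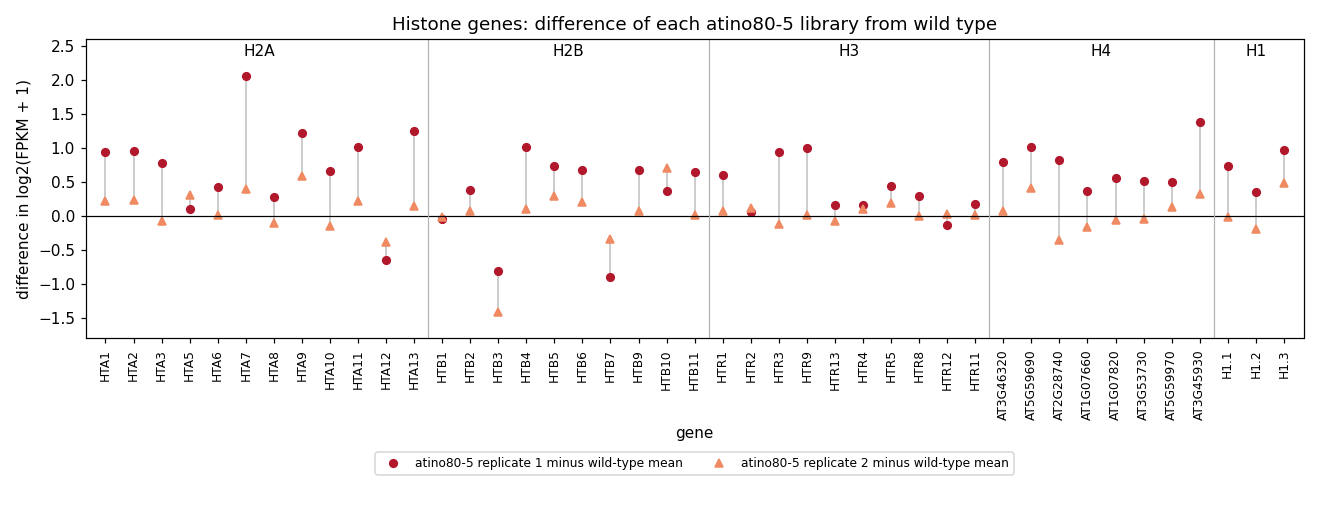
Difference of each atino80-5 library from the mean of the 2 wild-type libraries, on the log2(FPKM + 1) scale, for the 43 tested histone genes grouped by class; circles are atino80-5 replicate 1, triangles replicate 2, and a grey line joins them. Replicate 1 lies above 0 for most genes (median 0.60) and replicate 2 close to 0 (median 0.06), while HTB3, HTB7 and HTA12 lie below 0 in both, as does HTB1 by at most 0.05.

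Non-overlap of the genotypes gives a view that needs no model. Both atino80-5 libraries were above both wild-type libraries for 17 of 43 genes (39.5%), against 33.4% of all genes tested and 38.8% of short genes, a share near the background. Both were below for 3 of the 43, HTA12, HTB3 and HTB7, against 28.8% of all genes and 19.7% of short genes.

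Gene length moved with the difference in all genes. In genes of up to 600 bases the median against wild type was 0.36 in replicate 1 and 0.09 in replicate 2 of atino80-5, and in genes over 5000 bases it was -0.23 and -0.10. The wild-type libraries differed by length as well: the median of replicate 1 minus replicate 2 was 0.16 in the shortest and -0.08 in the longest class, close to the range in atino80-5 replicate 2. The tested histone genes spanned 399 to 2087 bases, with a median of 740. Of the 43, 33 lay above the median of their length class in replicate 1 and 15 in replicate 2. Once each library's trend against length was removed, the histone median was 0.18 and 33 of 43 were positive. In the same setting the median was 0.01 for all genes and 0.04 for short genes. Limma then called HTB3 alone of the histone genes, as lower, against 874 of 17642 genes called either way.

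**Figure D2:**
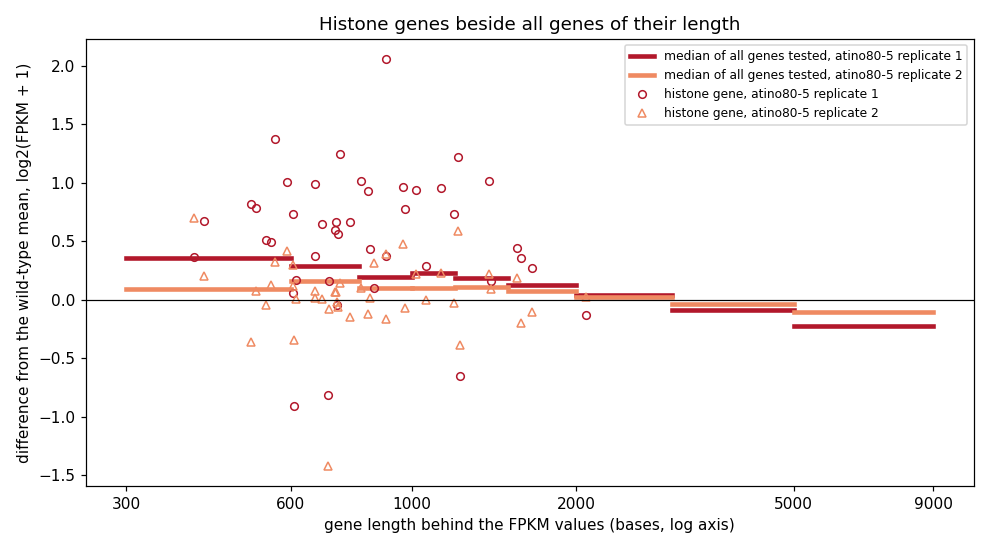
Difference of each atino80-5 library from the wild-type mean, log2(FPKM + 1), against gene length in bases on a log axis; open symbols are the 43 tested histone genes and bars the median of all tested genes in 9 length classes, the last drawn to the edge of the axis. In replicate 1 the bars run lower with length, 0.36 in the shortest class and -0.23 in the longest, and 33 of 43 histone genes lie above the bar of their length; in replicate 2 it is 15 of 43.

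Among H2A variants, H2A.Z stood highest above wild type in the lower of the mutant libraries. The 3 H2A.Z genes summed to 219.6 and 139.7 FPKM in atino80-5, against 90.8 and 104 FPKM in wild type, which put replicate 1 at 2.25 and replicate 2 at 1.43 times the wild-type mean. HTA9 (AT1G52740, chromosome 1) carried most of it, between 82.0% and 89.2% of the H2A.Z sum in each library. It had 195 and 125 FPKM in atino80-5, against 74.5 and 92.0 FPKM in wild type. The genotypes did not overlap and the means differed 1.92-fold, but the gene missed the limma threshold (log2 difference 0.90 ± 0.26 SE, adjusted p = 0.103). In the authors' deposited table its log2 fold change is 0.94 (adjusted p = 0.00471). Without replicate 1 of atino80-5 the difference was 0.58 (limma adjusted p = 0.0909), and without replicate 2 it was 1.22 and called (adjusted p = 0.00358). HTA9 overlaps AT1G52750 on the opposite strand, and the sources used here do not give whether counting used strand.

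The other H2A.Z genes were lower and less clear. HTA11 (AT3G54560) had 18.2 and 10.1 FPKM in atino80-5, against 10.1 and 7.09 FPKM in wild type, so replicate 2 stood level with the higher wild-type library. Its log2 difference was 0.62 ± 0.29 SE (limma adjusted p = 0.229). HTA8 (AT2G38810) had 6.91 and 5.07 FPKM in atino80-5, against 6.15 and 4.98 FPKM in wild type. These values interleave (log2 difference 0.08 ± 0.19 SE, limma adjusted p = 0.795). As a share of all H2A RNA per length, H2A.Z made up 27.4% and 30.6% in atino80-5, against 24.0% and 26.8% in wild type. Both mutant values were above both wild-type values, with less room between the genotypes than between libraries of one genotype.

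H2A.W is the plant variant of silent heterochromatin, and its gene HTA7 showed the widest split between the mutant libraries of the tested members. HTA7 (AT5G27670) had 222 and 69.5 FPKM in atino80-5, against 51.7 and 53.7 FPKM in wild type. Replicate 1 thus stood at 3.19 times replicate 2, while the wild-type libraries were nearly equal. The log2 difference was 1.22 ± 0.50 SE (limma adjusted p = 0.181), 0.39 without replicate 1 of atino80-5 (adjusted p = 0.127), and 2.05 and called without replicate 2 (adjusted p = 0.000615). HTA7 took 74.1% and 53.4% of H2A.W RNA in atino80-5, against 45.0% and 46.4% in wild type. HTA6 (AT5G59870), of the same variant, had 72.2 and 54.0 FPKM in atino80-5, against 52.4 and 54.3 FPKM in wild type. Its replicate 2 lay inside the wild-type range (log2 difference 0.22 ± 0.20 SE, limma adjusted p = 0.485).

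HTA12 (AT5G02560), the remaining H2A.W gene, lay on the other side. It had 5.45 and 6.76 FPKM in atino80-5, against 10.9 and 7.70 FPKM in wild type, so both mutant libraries were lower, by a small margin between the nearest libraries (log2 difference -0.52 ± 0.20 SE, limma adjusted p = 0.169). The gene overlaps the H2B gene HTB10 on the opposite strand. HTB10 had 3.00 and 4.04 FPKM in atino80-5, against 2.53 and 1.75 FPKM in wild type, from 14 and 23 reads against 15 and 14. The overlapping genes therefore differed in opposite directions, neither past the limma threshold (HTB10 log2 difference 0.53 ± 0.20 SE, adjusted p = 0.156).

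The 4 canonical H2A genes had positive differences, between 0.26 (HTA10) and 0.69 (HTA13). HTA13 had 44.5 and 20.2 FPKM in atino80-5, against 18.7 and 17.7 FPKM in wild type. HTA1, also known as RAT5 for its part in transformation by Agrobacterium, had 29.9 and 17.8 FPKM in atino80-5, against 13.7 and 16.7 FPKM in wild type. HTA10 had 68.2 and 38.3 FPKM in atino80-5, against 42.45 and 42.79 FPKM in wild type, so its replicate 2 was below both wild-type libraries, and without replicate 1 its difference was -0.15. For HTA1, HTA2 and HTA13 both atino80-5 libraries were above both wild-type libraries, which was so for 33.4% of all genes tested and 38.8% of short genes. The 4 summed to 195 and 108 FPKM in atino80-5, against 102.5 and 103.0 FPKM in wild type, so replicate 2 stood at 1.05 times wild type. Their share of H2A RNA per length was 24.4% and 23.6% in atino80-5, against 27.1% and 26.5% in wild type, lower in both mutant libraries.

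The H2A.X genes, whose products are phosphorylated at DNA breaks, differed from each other. HTA5 was higher in replicate 2, with 51.0 and 59.2 FPKM in atino80-5, against 49.8 and 45.5 FPKM in wild type. HTA3 was higher in replicate 1, with 35.49 and 19.27 FPKM in atino80-5, against 20.12 and 20.56 FPKM in wild type. Neither had an unadjusted limma p under 0.05.

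**Figure D3:**
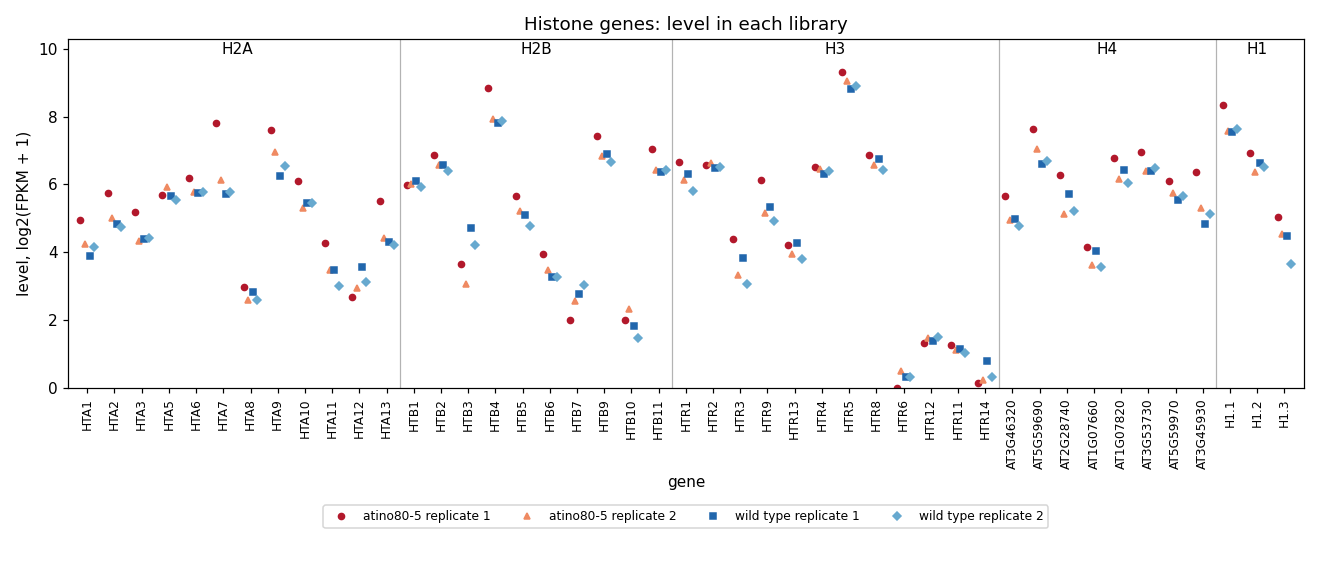
Level of the 45 histone genes with values in each library, log2(FPKM + 1), by class; for each gene the 2 atino80-5 libraries stand left of the 2 wild-type libraries. HTR5 is the highest in all 4 libraries, HTA7 (222 and 69.5 FPKM in atino80-5, 51.7 and 53.7 FPKM in wild type) stands out in atino80-5 replicate 1, and HTB3 is lower in both atino80-5 libraries.

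Among H2B genes, HTB3 (AT2G28720, chromosome 2) was lower in both mutant libraries. It had 11.6 and 7.31 FPKM in atino80-5, against 25.4 and 17.6 FPKM in wild type, from 95 and 73 reads against 265 and 248. The atino80-5 mean was 0.439 times the wild-type mean. The log2 difference was -1.12 ± 0.26 SE, and the limma adjusted p of 0.0681 missed the threshold. In the authors' deposited table its log2 fold change is -1.19 (adjusted p = 0.00919). Limma called it when atino80-5 replicate 1 (-1.42, adjusted p = 0.0107), atino80-5 replicate 2 (-0.82, adjusted p = 0.0249) or wild type replicate 2 (-1.37, adjusted p = 0.0296) was left out, and did not without wild type replicate 1 (-0.86, adjusted p = 0.257). Within the library, HTB3 made up 1.131% and 1.101% of H2B RNA per length in atino80-5, against 3.844% and 2.818% in wild type. That share does not depend on the scaling between libraries. No 50-base stretch of HTB3 occurs in another reference gene. HTB3 was singled out after its values were seen.

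HTB4 (AT5G59910), the most expressed H2B gene, had 462 and 245.5 FPKM in atino80-5, against 222 and 235 FPKM in wild type. Replicate 2 was just above the wild-type range (log2 difference 0.56 ± 0.32 SE, limma adjusted p = 0.299). HTB9 (AT3G45980) had 173 and 114 FPKM in atino80-5, against 118 and 100.2 FPKM in wild type. Its genotypes overlapped (log2 difference 0.37 ± 0.25 SE, limma adjusted p = 0.372). HTB7 had 2.96 and 4.85 FPKM in atino80-5, against 5.75 and 7.13 FPKM in wild type, from 21 and 42 reads against 52 and 87. It was, with HTB3, the H2B gene with both mutant libraries lower (log2 difference -0.62 ± 0.22 SE, limma adjusted p = 0.148). HTB1 was level, with 61.9 and 63.2 FPKM in atino80-5 and 68.2 and 60.1 FPKM in wild type. The other H2B genes, HTB2, HTB5, HTB6 and HTB11, had differences between 0.22 and 0.51. The 8 H2B genes with the hexamer had a median difference of 0.35 and include HTB3, so the motif did not go with a single direction.

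**Figure D4:**
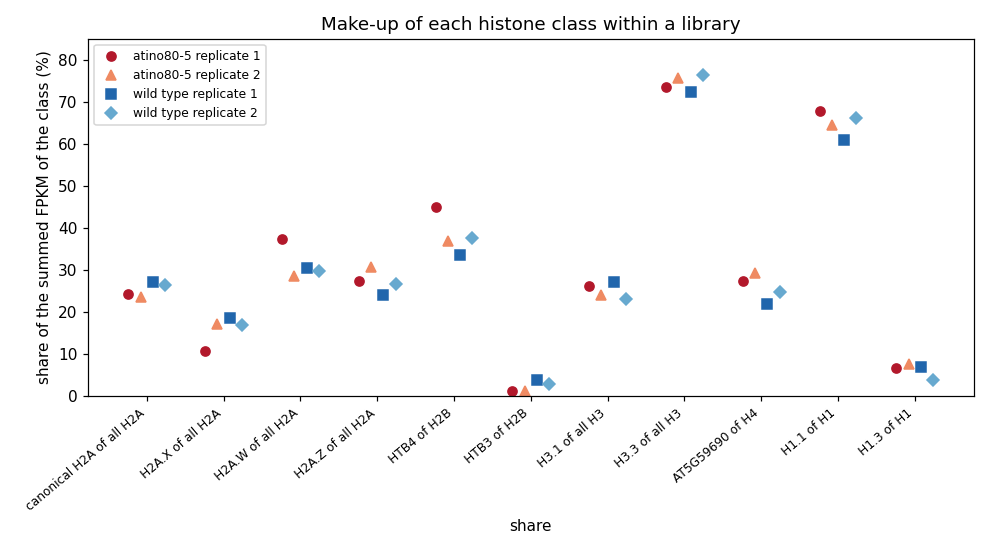
Share of single genes or subclasses in the summed FPKM of their histone class, in percent, in each library; the atino80-5 libraries stand left of the wild-type libraries. HTB3 is at 1.131% and 1.101% of H2B in atino80-5, against 3.844% and 2.818% in wild type, whereas the H3.1 and H3.3 shares interleave between genotypes.

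For H3 the balance of the replication-type H3.1 and the replacement-type H3.3 interleaved between genotypes. H3.3 made up 73.5% and 75.7% of H3 RNA per length in atino80-5, against 72.4% and 76.4% in wild type. HTR5 (AT4G40040, H3.3) was the highest of the 45 histone genes, also per exon length, with 632 and 529.5 FPKM in atino80-5 and 454 and 476 FPKM in wild type. Its genotypes did not overlap, but the difference was small (log2 difference 0.32 ± 0.22 SE, limma adjusted p = 0.373). HTR8 (AT5G10980), also H3.3, had 116 and 95.0 FPKM in atino80-5, against 106 and 85.9 FPKM in wild type. These overlapped (log2 difference 0.14 ± 0.21 SE, limma adjusted p = 0.68). HTR4, the last H3.3 gene, had 90.6 and 86.4 FPKM in atino80-5, against 78.0 and 83.8 FPKM in wild type, a log2 difference of 0.13.

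The 5 H3.1 genes summed to 300.2 and 225 FPKM in atino80-5, against 239 and 196 FPKM in wild type. HTR2 (AT1G09200), which carries the octamer at 2 places, had 93.8 and 97.7 FPKM in atino80-5, against 89.2 and 90.6 FPKM in wild type. All 4 values are close (log2 difference 0.09 ± 0.17 SE, limma adjusted p = 0.751), and the sign turned in 3 of the alternatives. HTR1 (AT5G65360) had 100.5 and 69.2 FPKM in atino80-5, against 78.9 and 55.5 FPKM in wild type, with one high library in each genotype (log2 difference 0.33 ± 0.26 SE, limma adjusted p = 0.443). HTR3, HTR9 and HTR13 also overlapped between genotypes, with differences between 0.04 and 0.50. In the 5 genes, replicate 2 lay between -0.12 and 0.12 from the wild-type mean on the log2 scale.

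HTR12 (AT1G01370), the centromeric H3 known as CENH3, had 1.48 and 1.75 FPKM in atino80-5, against 1.61 and 1.82 FPKM in wild type. These values interleave (log2 difference -0.06 ± 0.15 SE, limma adjusted p = 0.831). The other H3-like genes were close to the detection limit. HTR11 had 10 reads in each atino80-5 library and 11 and 13 in wild type. HTR6 had 0 and 5 reads in atino80-5 and 3 and 4 in wild type, and HTR14 had 1 and 2 reads in atino80-5 and 9 and 4 in wild type. At such read counts small differences were not detectable, and HTR11, the only one of the 3 tested, did not pass (limma adjusted p = 0.724).

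The 8 H4 genes encode the same protein and had positive differences, between 0.10 (AT1G07660) and 0.85 (AT3G45930). Each was highest in replicate 1, whereas 4 of the 8 lay below the wild-type mean in replicate 2. AT5G59690, the most expressed of them and a carrier of the octamer, had 199 and 132 FPKM in atino80-5, against 96.2 and 102 FPKM in wild type. The genotypes did not overlap (log2 difference 0.71 ± 0.24 SE, limma adjusted p = 0.136), and without replicate 2 of atino80-5 the difference was 1.00 and called (adjusted p = 0.00386). For AT5G59690 the authors' deposited table has a log2 fold change of 0.74 (adjusted p = 0.0324). Its share of H4 RNA per length was 27.5% and 29.2% in atino80-5, against 22.0% and 24.7% in wild type, higher in both mutant libraries.

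AT3G45930 had 81.0 and 38.5 FPKM in atino80-5, against 27.7 and 33.8 FPKM in wild type. Most of that gap came with replicate 1 (log2 difference 0.85 ± 0.34 SE, limma adjusted p = 0.181), which without replicate 2 gave 1.38 and a call (adjusted p = 0.00205). For AT3G45930 the authors' deposited table has a log2 fold change of 0.95 (adjusted p = 0.0406). AT3G46320, which shares sequence with it and also has the TTTGGCGC site, had 50.1 and 30.2 FPKM in atino80-5, against 30.9 and 26.5 FPKM in wild type, and overlapped. AT3G53730 had 123 and 83.0 FPKM in atino80-5, against 83.8 and 88.0 FPKM in wild type. There replicate 2 was below both wild-type libraries (log2 difference 0.23 ± 0.23 SE, limma adjusted p = 0.535). AT2G28740 had the same order, with 77.5 and 33.7 FPKM in atino80-5, against 52.0 and 36.3 FPKM in wild type.

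Linker histone H1 binds the DNA between nucleosomes. H1.1 (AT1G06760), its most expressed gene, had 322 and 189 FPKM in atino80-5, against 187 and 199 FPKM in wild type. Replicate 2 lay inside the wild-type range (log2 difference 0.36 ± 0.28 SE, limma adjusted p = 0.44). H1.2 (AT2G30620) had 121 and 82.0 FPKM in atino80-5, against 98.8 and 89.7 FPKM in wild type, one mutant library above and one below wild type (log2 difference 0.08 ± 0.23 SE, limma adjusted p = 0.843). H1.3 (AT2G18050), the stress-responsive form in Arabidopsis, had 31.7 and 22.3 FPKM in atino80-5, against 21.3 and 11.6 FPKM in wild type. Its genotypes were apart by a small margin, and the wild-type libraries lay far from each other (log2 difference 0.72 ± 0.31 SE, limma adjusted p = 0.196).

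The median response was similar with and without the octamer. The 10 carriers had a median difference of 0.32 and the 33 tested members without it 0.31, and in replicate 1 the medians were 0.63 and 0.56. In replicate 2 they were 0.04 and 0.07. All 10 carriers and 28 of the 33 without it had a positive difference, and this contrast was not tested.

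The genes that act with histones in the cell cycle and on DNA were set beside them. Of 17 DNA replication genes 16 were tested and limma called 0, against 5.41% of all genes. At an unadjusted p under 0.05 there were 4 (25%), near the 27.0% of all genes. Their median difference was -0.03. The authors' deposited table called 0 of them, against 5.85% of all genes called higher and 3.65% called lower there. The replication genes summed to 116 and 111 FPKM in atino80-5, against 110.4 and 113 FPKM in wild type. The 11 G2 and mitosis genes gave 0 limma calls, against 5.41% of all genes. At an unadjusted p under 0.05 there was 1 (9.09%), against 27.0% of all genes. Their median was -0.06, with 0 calls in the authors' deposited table, against the same 5.85% and 3.65% of all genes. They summed to 72.2 and 69.6 FPKM in atino80-5, against 78.9 and 77.2 FPKM in wild type. In neither sum did replicate 1 of atino80-5 stand apart as it did in the histone sum, but these genes are longer (median 3722 bases for replication, 2099 for mitosis), in a range where replicate 1 lay lower for all genes: its median was 0.04 in genes of 2000 to 3000 bases and -0.09 in those of 3000 to 5000.

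Of 23 chaperone and H2A.Z-deposition genes, 22 were tested and limma called 0, against 5.41% of all genes. At an unadjusted p under 0.05 there were 7 (31.8%), near the 27.0% of all genes, with a median of -0.06. The authors' deposited table called 0 of them, against 5.85% of all genes called higher and 3.65% called lower there. ASF1B, a chaperone of H3 and H4, had 9.17 and 7.39 FPKM in atino80-5, against 4.81 and 4.97 FPKM in wild type. It had the lowest adjusted p of the list (log2 difference 0.65 ± 0.16 SE, limma adjusted p = 0.0737). FAS1, the large subunit of the chaperone CAF-1, had 1.01 and 1.29 FPKM in atino80-5, against 2.17 and 1.92 FPKM in wild type (limma adjusted p = 0.115). PIE1, the ATPase of SWR1, had 1.506 and 1.902 FPKM in atino80-5, against 2.64 and 2.597 FPKM in wild type (limma adjusted p = 0.148). ARP6, a subunit of the same complex, had 11.1 and 9.04 FPKM in atino80-5, against 9.69 and 8.74 FPKM in wild type, and overlapped. ASF1B, FAS1, PIE1 and ARP6 were named after their values were seen.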

How the data were processed

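The authors deposited FPKM values per library, scaled by size factors, and a DESeq2 table with a mean normalised signal, a log2 fold change, its error and test score, and p-values. The submitters' processing notes list, without versions, the tools DESeq2, featureCounts, HISAT2, SAMtools, cutadapt, FastQC and deepTools, and the build TAIR10. Annotation and strand use in counting were not given in the sources used here. Deposited FPKM and signal together gave whole reads for 100% of 92696 values (tolerance 0.01), at size factors of 0.7849 and 0.9574 in atino80-5 and 0.9995 and 1.3479 in wild type. The gene lengths they imply were whole for 100% of genes, with a median ratio of 1.19 to RefSeq exon length. They follow another annotation than RefSeq: for INO80 the length was 8398 against 5305 bases, and among the 45 histone genes it was over the RefSeq exon length in 16, under it in 24 and equal in 5.

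Genotype was the only term in limma 3.58.1 (R 4.3.3), run with a trend of the variance on the mean of log2(FPKM + 1), over genes averaging 1 FPKM or more; the code was tested on simulated data. Log2 differences understate change in low genes. SE is limma's, and ratios are of mean FPKM. The rule for the members uses no value, but this gene class and the lists were chosen with earlier results of these data known. Given in full are INO80, the H2A.Z genes, the 2 highest members of each class, HTR12 and H1.3. Other members, such as HTB3, HTB7, HTB10, HTA12 and AT3G45930, were named after their values were seen. Alternatives were other pseudocounts, minimum levels and scalings, removal of the length trend, limma without trend or with voom, a replicate block, and each library left out. Shares and sums are given as values, with no test.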

Additional observations from a re-analysis of the deposited data

How the results depend on the processing

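The count of histone genes called was 0 in the main fit and with pseudocounts of 0.1 and 5 FPKM, no minimum level, a minimum mean of 5 FPKM and limma without trend. It was 1 (HTB3) with quantile normalisation, scaling to total reads, removal of the length trend and voom, and ran between 0 and 27 with 1 library left out. Over all genes, 955 were called in the main fit, 572 with the minimum of 5 FPKM, 1617 with scaling to total reads (484 higher and 1133 lower, against 528 and 427 in the main fit), and between 443 (without wild type replicate 1) and 6896 (without atino80-5 replicate 2) with 1 library left out. Same-numbered libraries did not deviate together over all genes (r = -0.03), but by gene length they shared a trend. In atino80-5 the medians of replicates 1 and 2 against wild type were 0.36 and 0.09 in genes of up to 600 bases. In genes over 5000 bases they were -0.23 and -0.10. For wild type replicate 1 minus replicate 2 the medians were 0.16 and -0.08. Whether same-numbered libraries pair is not known. With the replicate block 1985 genes were called, among them 2 histone genes, HTB3 (-1.12, limma adjusted p = 0.00267) and HTA7 (1.22, adjusted p = 0.0266). The signs of the genes that follow turned, and the cause was not tested. With quantile normalisation the log2 difference was 0.05 for HTR12, -0.04 for HTA6, -0.05 for HTA5, -0.08 for HTB2, -0.00 for HTB11, -0.20 for HTR2, -0.07 for HTR13, -0.17 for HTR4, -0.04 for HTR5, -0.18 for HTR8, -0.09 for AT3G53730, -0.07 for AT1G07820, -0.01 for AT2G28740, -0.01 for H1.1, -0.25 for H1.2 and -0.09 for CAB1. With scaling to total reads it was -0.10 for HTA8, -0.01 for HTA5, -0.13 for HTR2, -0.16 for HTR13, -0.09 for HTR4, -0.08 for HTR8, -0.03 for HTR11, -0.10 for AT1G07660, -0.14 for H1.2 and -0.09 for ARP6. With the length trend removed it was -0.06 for HTR2, -0.10 for HTR13, -0.06 for HTR11, -0.04 for AT1G07660 and -0.01 for H1.2. With 1 library left out it ran between -0.11 and 0.27 for HTA8, -0.07 and 0.77 for HTA3, -0.15 and 0.66 for HTA10, -0.12 and 0.06 for HTB1, -0.13 and 0.02 for HTR12, -0.12 and 0.93 for HTR3, -0.19 and 0.28 for HTR13, -0.01 and 0.29 for HTR8, -0.05 and 0.51 for AT3G53730, -0.36 and 0.82 for AT2G28740, -0.16 and 0.37 for AT1G07660, -0.06 and 0.56 for AT1G07820, -0.02 and 0.74 for H1.1, -0.20 and 0.36 for H1.2, -0.51 and 0.30 for RBCS1A, -0.65 and 0.36 for RBCS3B, and -0.02 and 0.25 for ARP6. Of 722 values under alternatives for 52 genes (the tested histone genes, INO80 and 8 others given with values), 55 turned sign, 40 passed the threshold that the main value missed and 627 kept both sign and side. With 2 libraries a genotype and the mutant libraries far apart, differences near 0.5 could not be told from the spread, and genes with few reads (HTR6, HTR11, HTR14, HTB10) are limited by depth.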
